A study of Mus musculus with 8 samples.

Results

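The solute carriers of ions, bicarbonate and metals were followed in organoids of the mouse hindstomach. The set was taken by gene symbol and holds every row of the count table whose symbol belongs to the Slc4, Slc8, Slc9, Slc11, Slc12, Slc20, Slc24, Slc26, Slc30, Slc31, Slc34, Slc39, Slc40 or Slc41 series. It has 86 of the 56691 rows of the table. Of these, 84 are carriers in 14 families and 2, Slc9a3r1 and Slc9a3r2, are scaffold proteins that bind sodium-hydrogen exchangers and carry their symbol.

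RNA was sequenced from YAP5SA organoids (genotype Shh-Cre;YAP5SA, 4 libraries) and from Ctrl organoids (genotype Shh-Cre, 4 libraries). Organoids are 3-dimensional cultures, here of hindstomach epithelium taken at embryonic day 18.5, kept for 5 days in growth medium and then 7 days in differentiation medium. YAP5SA is a form of the Hippo pathway coactivator YAP that cannot be phosphorylated at its inhibitory sites, and both groups carry Shh-Cre, a Cre recombinase expressed where Shh is active, which includes the epithelium of the gut. The comparison sets transcripts of these genotypes side by side under differentiation conditions, and sex differs along with genotype, as given below. Which embryos or litters the replicates come from is not labelled, so p-values cover the spread among these samples and nothing beyond it, and that spread may be technical.

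Carriers of the SLC4 and SLC26 families move bicarbonate, chloride and sulfate, those of SLC9 exchange sodium for protons, and those of SLC12 move chloride together with sodium or potassium. In the stomach, such carriers load chloride into acid-secreting cells and keep cell pH steady, and they serve the bicarbonate layer of the surface epithelium. SLC39 carriers bring zinc, and some of them iron or manganese, into the cytosol, while SLC30 carriers move zinc out of it, and SLC40, SLC31, SLC11 and SLC41 carriers handle iron, copper and magnesium.

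Promoters of 3 carriers are shown, picked after a search of all member promoters for 2 motifs. Slc39a8 and Slc20a1 are among the members with the largest rises and hold the core motif of the TEAD factors that YAP binds, and Slc30a1, lower in YAP5SA, is known as a target of the zinc-sensing factor MTF1. Each run gives the 250 bases before a start site, 5' to 3' on the plus strand, from the RefSeq promoter table for GRCm38.p6. Capitals mark the TEAD core, CATTCC or its reverse complement, in Slc39a8 (chr3:135825029-135825278) and Slc20a1 (chr2:129206846-129207095, the later of its start sites on the strand). In Slc30a1 (chr1:191906531-191906780) they mark a core of MTF1, TGCACNC or TGCGCNC, read on both strands, and the marked matches do not overlap each other.
Slc39a8: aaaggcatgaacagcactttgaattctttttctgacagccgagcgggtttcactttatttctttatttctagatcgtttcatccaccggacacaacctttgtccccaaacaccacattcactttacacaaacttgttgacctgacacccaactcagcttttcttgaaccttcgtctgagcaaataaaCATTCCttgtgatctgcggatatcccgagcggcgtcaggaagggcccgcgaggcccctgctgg
Slc20a1: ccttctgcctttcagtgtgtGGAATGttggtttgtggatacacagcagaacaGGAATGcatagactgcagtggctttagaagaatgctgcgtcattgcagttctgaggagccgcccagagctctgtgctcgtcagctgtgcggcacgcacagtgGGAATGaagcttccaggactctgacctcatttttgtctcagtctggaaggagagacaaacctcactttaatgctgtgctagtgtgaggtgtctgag
Slc30a1: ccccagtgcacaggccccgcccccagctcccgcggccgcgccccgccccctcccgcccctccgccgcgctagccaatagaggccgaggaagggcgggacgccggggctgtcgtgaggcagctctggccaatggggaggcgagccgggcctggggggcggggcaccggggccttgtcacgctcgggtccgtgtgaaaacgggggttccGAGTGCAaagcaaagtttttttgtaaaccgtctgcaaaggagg
Slc39a8 held 1 TEAD core and Slc20a1 held 3, and of each gene's start sites the one with the most TEAD cores is printed. The other RefSeq window of each gene held an MTF1 core and no TEAD core, and so did the window of Slc39a13, which had the second largest rise. RefSeq promoter windows of 300 bases, 250 before and 50 after a start site, were found for 67 of the 86 members. A TEAD core stood in a window of 11 of these 67 members (16.42%), against 16.58% of 27025 genes with a window. An MTF1 core stood in a window of 31 of the 67 (46.27%), against 28.23% of all genes. These are letters in a window and not binding sites.

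Total counts were 17387372 to 21039926 per library in YAP5SA and 18225648 to 25841256 in Ctrl. The members took 0.343 to 0.355% of all counts in YAP5SA libraries and 0.528 to 0.579% in Ctrl libraries. These shares rest largely on a few genes and do not describe the set as a whole. Slc26a2 and Slc9a4 had 136765 and 58987 counts in Ctrl, against 9033 and 8174 in YAP5SA. Slc39a8 went the other way, with 372 counts in Ctrl and 38735 in YAP5SA. The groups also differed in sex-linked transcripts: Xist, the RNA of the inactive X chromosome, had 14 counts in all of YAP5SA and 39949 in all of Ctrl, and 4 Y-linked genes had 4252 to 13223 counts each in YAP5SA and 0 in Ctrl. Xist had 0 to 0.416 CPM in single YAP5SA libraries and 476 to 633 CPM in single Ctrl libraries. By these transcripts sex follows genotype in all 8 libraries. Differences of genotype and of sex thus cannot be told apart for any gene here. Surface mucous cell markers were all 6 lower in YAP5SA, with summed CPM (counts scaled to a common library total) of 3851 to 5592 in YAP5SA libraries and 38325 to 62649 in Ctrl libraries. Chief cell markers were lower in all 3 tested of 4, with sums of 41.3 to 76.6 CPM in YAP5SA libraries and 1299.6 to 2875 CPM in Ctrl libraries. Nearly all of these sums was Cym, which encodes chymosin and had the largest fall of the tested chief cell markers (34.4-fold). In Ctrl, Cym averaged 1720 CPM, against 6.25 CPM for Pgc, 2.30 CPM for Bhlha15 and 0.836 CPM for Pga5, which was not tested. Of 4 tested gland mucous markers Tff2 and Gkn3 were lower (18.4-fold and 13.2-fold), and Aqp5 and Glipr1 were higher (1.80-fold and 1.56-fold). Of 4 tested squamous markers Sprr3 and Lor were higher (96.6-fold and 2.93-fold), Krt14 was lower (5.24-fold) and Krt13 was not called. Markers of the epithelium as such summed to 9261 to 10954 CPM in YAP5SA libraries and 15570 to 17068 CPM in Ctrl libraries, with Epcam higher and Krt8 lower in YAP5SA. Mesenchyme, endothelium and erythroid markers summed to at most 1.003, 0.889 and 0.447 CPM in any library, with Col1a2, Lum and Slc4a1 at 0 in all of them. Of 6 leukocyte markers 2 were higher in YAP5SA, Cd68 with 38.2 CPM in YAP5SA and 12.3 CPM in Ctrl, and Lyz2, while Ptprc had 3 counts in YAP5SA and 15 in Ctrl and Adgre1 had 0. The part that these differences have in the results was not tested.

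Most tested carriers differed between the groups, as did most of all genes tested. Lower in YAP5SA were 8 of 12 tested bicarbonate and anion carriers, 5 of 6 sodium-hydrogen exchangers and 4 of 5 cation-chloride cotransporters. The members with the largest rises were Slc39a8 and Slc39a13, carriers of zinc, and Slc20a1, a carrier of phosphate. Of the 86 members 53 had enough counts to be tested, and of these 14 were higher and 23 were lower in YAP5SA (edgeR quasi-likelihood test, adjusted p under 0.05 over all 13812 genes tested). The 37 called members are 69.8% of those tested, beside 64.5% of all genes tested, with 33.1% of all genes higher and 31.3% lower. The median log2 fold change of the 53 tested members was -0.11, against 0.02 over all genes tested. Called changes of more than 2-fold were found in 22 of the 53 members (41.5%), beside 25.5% of all genes tested; 8 were higher, beside 14.0% of all genes, and 14 were lower, beside 11.5%. The libraries of the groups did not overlap for 36 of the 53 members, beside 58.7% of all genes. Only Slc4a4 among the called members had overlapping groups. In bulk RNA, fewer cells of a type and less RNA per cell cannot be told apart.

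**Figure D1:**
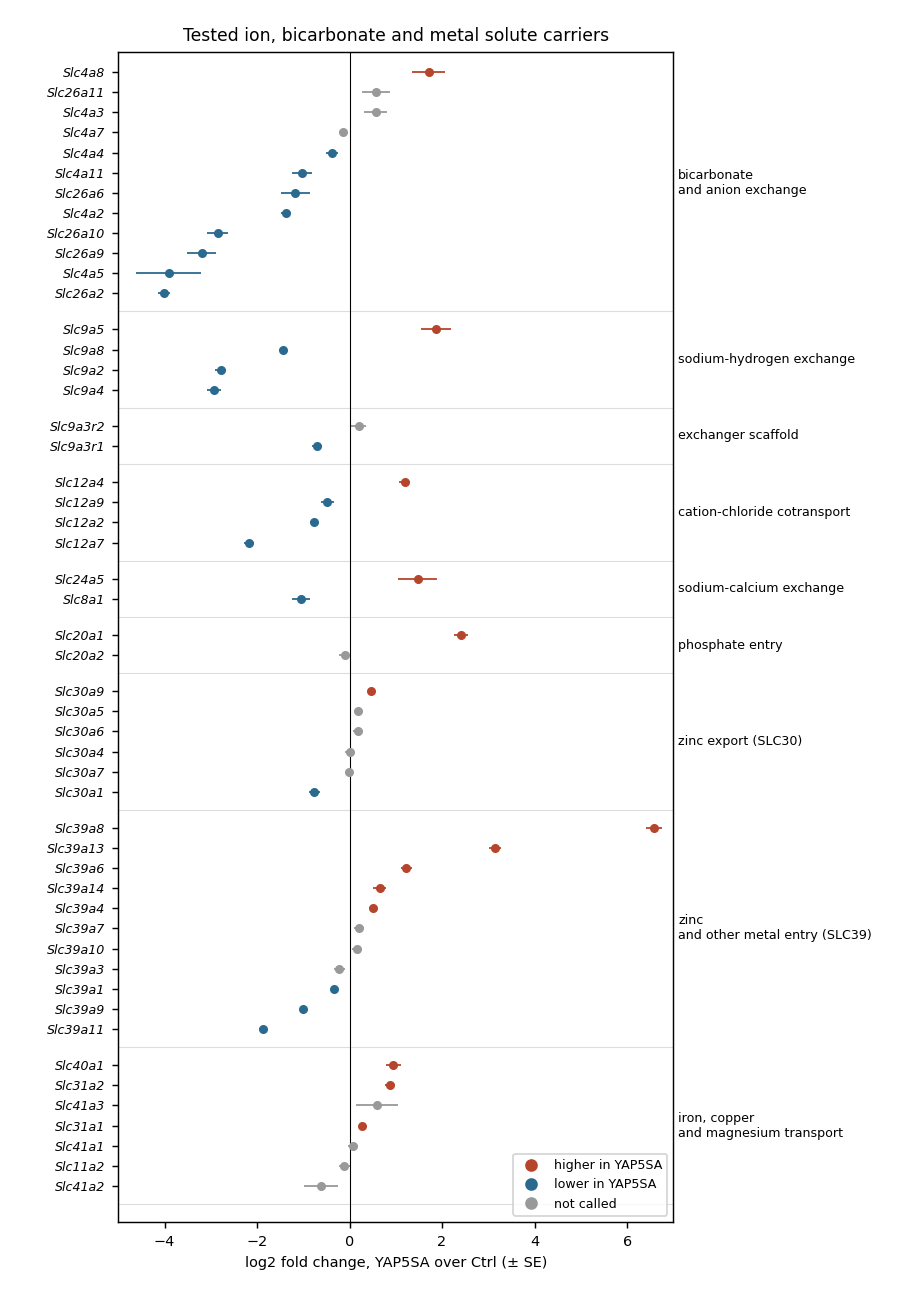
Log2 fold change of 50 of the 53 tested members, YAP5SA over Ctrl, with bars of 1 SE, arranged by what the carrier moves. Slc39a8 stands alone at 6.58 at the high end, and Slc26a2, Slc4a5, Slc26a9 and Slc9a4 hold the low end between -4.02 and -2.93.

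**Figure D2:**
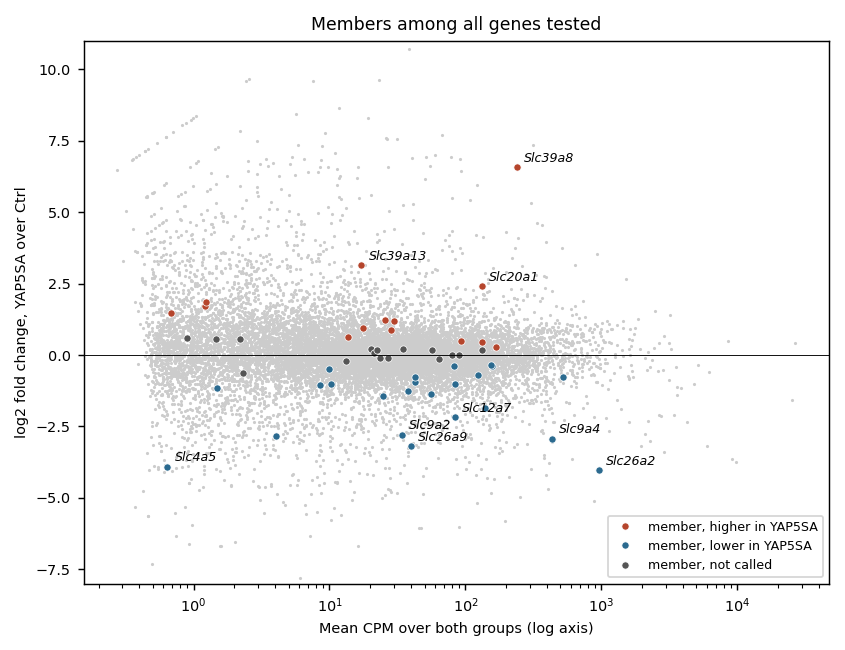
Log2 fold change, YAP5SA over Ctrl, against mean CPM over both groups (log axis) for all genes tested in grey, with the 53 tested members coloured by call; 7 genes lie outside the vertical range of -8 to 11. Slc39a8, Slc26a2 and Slc9a4 combine large changes with positions far to the right on the level axis.

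Of 21 listed bicarbonate and anion carriers 12 were tested, and 8 were lower in YAP5SA, 1 was higher and 3 were not called. The called changes exceeded 2-fold for 7 of those lower and for the 1 higher, and the 12 had a median log2 fold change of -1.10. Among all genes tested 31.3% were lower and 33.1% higher, and 25.5% had a called change of more than 2-fold. Slc26a2, a sulfate exchanger that supplies sulfate for the sulfation of glycans, had 100.004, 95.2, 133 and 114 CPM in YAP5SA libraries, against 2152, 1572, 1664 and 1797 CPM in Ctrl libraries. No YAP5SA library came near the lowest Ctrl library. Slc26a2 was 16.2-fold lower (log2 fold change -4.02 ± 0.13 SE, edgeR adjusted p = 1.19e-11).

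Slc26a9, a chloride channel and anion carrier of gastric surface cells, had 8.36, 7.34, 9.70 and 5.97 CPM in YAP5SA libraries, against 48.5, 118, 84.1 and 36.8 CPM in Ctrl libraries. The groups did not overlap, although the Ctrl libraries themselves spread widely. It was 9.17-fold lower (log2 fold change -3.20 ± 0.31 SE, edgeR adjusted p = 6.9e-07). Slc4a2, the chloride-bicarbonate exchanger on the basolateral side of parietal cells, had 25.9, 28.8, 31.8 and 37.4 CPM in YAP5SA libraries, against 82.4, 76.2, 74.4 and 88.5 CPM in Ctrl libraries. All YAP5SA libraries were lower than all Ctrl libraries, and Slc4a2 was 2.59-fold lower (log2 fold change -1.38 ± 0.11 SE, edgeR adjusted p = 8.67e-08). An opposite-strand gene, Fastk, shares 13.7% of the exon bases of Slc4a2 and was itself higher in YAP5SA (log2 fold change 0.38). Markers of parietal cells summed to 32.4 to 42.8 CPM in YAP5SA libraries and 39.5 to 45.0 CPM in Ctrl libraries. Most of this was Kcnq1, which averaged 31.7 CPM in YAP5SA and 37.7 CPM in Ctrl. Of 3 tested parietal markers 1 was lower and 2 were not called. The proton pump subunit Atp4b had 1 count in YAP5SA and 13 in Ctrl and was not tested. Its partner subunit Atp4a had 368 counts in YAP5SA and 233 in Ctrl and was not called.

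Slc4a4, the electrogenic sodium-bicarbonate cotransporter, had 133, 135, 174 and 101 CPM in YAP5SA libraries, against 169, 205, 171 and 162 CPM in Ctrl libraries. YAP5SA replicate 3 lay above 3 of the 4 Ctrl libraries, so the groups overlapped. Its small fall (log2 fold change -0.38 ± 0.13 SE, edgeR adjusted p = 0.0214) was lost without Ctrl replicate 2 (log2 fold change -0.32, adjusted p = 0.0515) and with scaling by library size (log2 fold change -0.20, adjusted p = 0.208), and adjusted p ran between 6.24e-05 and 0.208 over all alternatives. Slc26a6, an apical exchanger of chloride for bicarbonate and oxalate, was present at low levels, with 0.681, 0.780, 0.906 and 1.28 CPM in YAP5SA libraries and 1.86, 2.90, 1.58 and 1.96 CPM in Ctrl libraries. The groups did not overlap, and the log2 fold change was -1.17 ± 0.31 SE (edgeR adjusted p = 0.00467). Slc4a5, another electrogenic sodium-bicarbonate cotransporter, had 6 counts in YAP5SA and 91 in Ctrl (log2 fold change -3.91 ± 0.70 SE). The other carriers called lower were Slc4a11, with a log2 fold change of -1.03, and Slc26a10, with -2.85; B4galnt1 lies on the opposite strand over 17.8% of the exon bases of Slc26a10 and was also lower (log2 fold change -2.29).

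Slc4a8, a sodium-driven chloride-bicarbonate exchanger, was the carrier called higher. It had 3.09, 1.35, 1.39 and 1.60 CPM in YAP5SA libraries, against 0.621, 0.592, 0.500 and 0.559 CPM in Ctrl libraries. All YAP5SA libraries were higher, and the log2 fold change was 1.71 ± 0.36 SE (edgeR adjusted p = 0.000783). Not called were Slc4a7, an electroneutral sodium-bicarbonate cotransporter (log2 fold change -0.15), the anion exchanger Slc4a3 (0.57) and Slc26a11, a sulfate and chloride carrier (0.57). Slc26a7, a chloride-bicarbonate exchanger of parietal cells, had 0 counts in all 8 libraries, which allows at most 0.0388 CPM over YAP5SA and 0.0368 CPM over Ctrl.

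Genes that work beside these carriers also differed, in a fit that called 33.1% of all genes tested higher and 31.3% lower. Of 16 carbonic anhydrases, which make bicarbonate and protons from carbon dioxide and water, 7 were tested, and 3 were higher, 3 lower and 1 not called. Car9, a membrane-bound form with its active site outside the cell, averaged 492 CPM in YAP5SA and 69.5 CPM in Ctrl (log2 fold change 2.82 ± 0.09 SE, edgeR adjusted p = 1.43e-11). Car2, the main cytosolic form, averaged 525 CPM in YAP5SA and 2641 CPM in Ctrl (log2 fold change -2.33 ± 0.09 SE, edgeR adjusted p = 6.26e-11), and Car8, a related protein without catalytic activity, was lower as well (log2 fold change -2.76). Of 7 tested partners of bicarbonate carriers and sodium-hydrogen exchangers, 6 were lower and 1 was higher. Tesc, a calcineurin B-like protein that binds sodium-hydrogen exchangers, averaged 1.68 CPM in YAP5SA and 49.9 CPM in Ctrl (log2 fold change -4.89 ± 0.17 SE, edgeR adjusted p = 2.1e-11). Ahcyl2, a protein of the family that activates Slc4a4, had a log2 fold change of -2.15, while its relative Ahcyl1, with 339 CPM in YAP5SA and 252 CPM in Ctrl, was higher (log2 fold change 0.43, edgeR adjusted p = 0.000162). Chp1, an essential cofactor of sodium-hydrogen exchangers, had a log2 fold change of -0.85.

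All 6 tested sodium-hydrogen exchangers were called, 5 lower and 1 higher in YAP5SA, of 9 listed. By comparison, 64.5% of all genes tested were called, 31.3% lower and 33.1% higher. Slc9a4, a basolateral exchanger abundant in the stomach, had 92.5, 102, 123 and 85.4 CPM in YAP5SA libraries, against 619.9, 947, 849 and 651 CPM in Ctrl libraries. The groups were far apart, and Slc9a4 was 7.62-fold lower (log2 fold change -2.93 ± 0.15 SE, edgeR adjusted p = 8.46e-10). Gm37435, on the opposite strand over 16.8% of its exon bases, averaged 0.630 CPM in YAP5SA and 1.53 CPM in Ctrl. Slc9a2, an exchanger of gastric and intestinal epithelium, had 8.31, 7.23, 9.33 and 9.76 CPM in YAP5SA libraries, against 49.3, 60.5, 63.4 and 65.8 CPM in Ctrl libraries. Every YAP5SA library was below every Ctrl library (log2 fold change -2.79 ± 0.12 SE, edgeR adjusted p = 2.05e-10).

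Slc9a8, found in the Golgi and at the apical membrane, was lower too (log2 fold change -1.44 ± 0.09 SE). Slc9a5, an exchanger best known from brain, had 1.95, 1.82, 2.08 and 1.92 CPM in YAP5SA libraries, against 0.338, 0.711, 0.709 and 0.335 CPM in Ctrl libraries. Its level was low but the groups did not overlap, and its log2 fold change was 1.86 ± 0.33 SE (edgeR adjusted p = 0.000193). Slc9a3, the absorptive exchanger of intestine and kidney, had 6 counts in all of YAP5SA and 0 in all of Ctrl. The scaffold Slc9a3r1, which anchors Slc9a3 and other membrane proteins to ezrin, had 81.5, 84.3, 90.9 and 118 CPM in YAP5SA libraries, against 146, 155, 153 and 156 CPM in Ctrl libraries. The groups did not overlap (log2 fold change -0.70 ± 0.10 SE, edgeR adjusted p = 4.24e-05), and the related scaffold Slc9a3r2 was not called (log2 fold change 0.19). Surface mucous and chief cell markers were lower in the same libraries, and their part in these values was not tested.

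**Figure D3:**
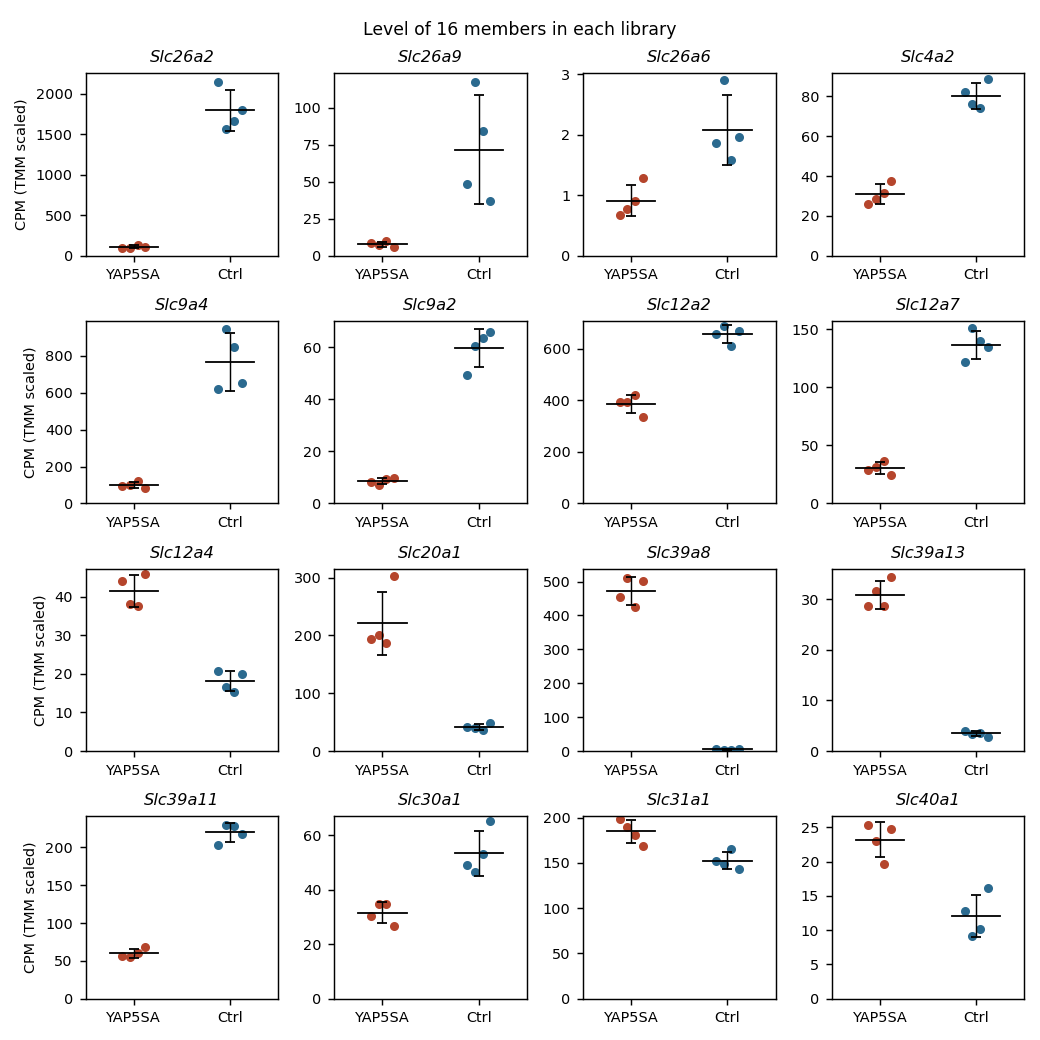
CPM with TMM scaling of 16 members in each of the 8 libraries, YAP5SA at left and Ctrl at right in each panel; points are libraries, the long line is the mean and the bars are 1 SD (n = 4 each), and every vertical axis starts at 0. The 16 shown are all called members whose groups do not overlap, as is so for 36 of the 53 tested members and 58.7% of all genes tested.

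Of 9 listed cation-chloride cotransporters 5 were tested, and 4 were lower in YAP5SA and 1, Slc12a4, was higher. Among all genes tested 31.3% were lower and 33.1% higher. Slc12a2, the sodium-potassium-chloride cotransporter that loads cells with chloride from the basolateral side, had 395, 394, 419 and 335 CPM in YAP5SA libraries, against 658, 689, 609 and 667 CPM in Ctrl libraries. The groups did not overlap, and Slc12a2 was 1.70-fold lower (log2 fold change -0.77 ± 0.08 SE, edgeR adjusted p = 1.54e-06). Among the potassium-chloride cotransporters, which let chloride leave the cell, Slc12a7 had 28.9, 31.2, 36.9 and 24.5 CPM in YAP5SA libraries, against 122, 151, 139.9 and 135 CPM in Ctrl libraries. Slc12a7 was 4.51-fold lower with no overlap of the groups (log2 fold change -2.17 ± 0.11 SE, edgeR adjusted p = 1.24e-09). Its relative Slc12a4 went the other way, with 44.0, 38.2, 37.5 and 45.7 CPM in YAP5SA libraries, against 20.7, 16.6, 15.2 and 20.1 CPM in Ctrl libraries. Every YAP5SA library was above every Ctrl library, and the rise was 2.28-fold (log2 fold change 1.19 ± 0.12 SE, edgeR adjusted p = 7.5e-07). Slc12a9, which interacts with other members of the family, had a log2 fold change of -0.48 ± 0.14 SE.

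Of 11 genes of the WNK and SPAK system, which switches these cotransporters, 4 were higher, 4 lower and 3 not called. Over all genes tested 33.1% were higher and 31.3% lower. The system has 6 kinases in this list, of which Wnk1, Wnk2 and Oxsr1 were higher, Stk39 was lower, and Wnk3 and Wnk4 were not called. Wnk1, the upstream kinase, was higher (log2 fold change 0.67 ± 0.08 SE, edgeR adjusted p = 3.63e-06), and so were Wnk2 (log2 fold change 1.08 ± 0.22 SE) and Oxsr1 (0.24 ± 0.08 SE). Stk39 (SPAK), which phosphorylates the cotransporters themselves, averaged 105 CPM in YAP5SA and 221 CPM in Ctrl (log2 fold change -1.08 ± 0.13 SE, edgeR adjusted p = 4.52e-06). Of 5 tested genes of the sodium pump, whose gradient drives these carriers, 4 were lower, with Fxyd3, a regulatory subunit (log2 fold change -2.01), and the beta subunits Atp1b1 (-0.95) and Atp1b3 (-0.32) among them. Atp1b3 lost its call with scaling by library size (log2 fold change -0.15, adjusted p = 0.172, the highest of all alternatives).

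Only 2 of 8 sodium-calcium exchangers were tested, with 1 call in each direction. Slc8a1, which expels calcium across the plasma membrane, had 4.13, 4.68, 5.44 and 7.75 CPM in YAP5SA libraries, against 13.8, 10.5, 9.13 and 12.3 CPM in Ctrl libraries. It was lower in YAP5SA, with no overlap (log2 fold change -1.05 ± 0.20 SE, edgeR adjusted p = 0.000383). Slc24a5, a potassium-dependent exchanger of intracellular membranes, averaged 1.01 CPM in YAP5SA and 0.357 CPM in Ctrl (log2 fold change 1.47 ± 0.42 SE). Myef2 lies on the opposite strand over 39.5% of the exon bases of Slc24a5 and was also higher (log2 fold change 0.90), so the counts of Slc24a5 are uncertain. Other calcium genes were mostly lower: of 11 tested pumps and entry genes 10 were lower and 1 was higher, 4 of these by more than 2-fold. Over all genes tested 31.3% were lower and 33.1% higher. Atp2a3, a calcium pump of the endoplasmic reticulum, averaged 6.24 CPM in YAP5SA and 96.4 CPM in Ctrl (log2 fold change -3.94 ± 0.15 SE, edgeR adjusted p = 6.66e-11). Stim2, a calcium sensor of that store, had a log2 fold change of -1.10, and Mcu, the mitochondrial calcium channel, one of -1.21.

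Phosphate entry showed a rise in Slc20a1 alone among the 2 tested of 5 carriers. Slc20a1 (PiT1), a sodium-phosphate cotransporter found in most cells, had 194, 201, 187 and 302 CPM in YAP5SA libraries, against 41.5, 40.7, 36.5 and 48.2 CPM in Ctrl libraries. YAP5SA replicate 4 was the highest, and the lowest YAP5SA library was still far above the highest Ctrl library. The rise was 5.31-fold (log2 fold change 2.41 ± 0.15 SE, edgeR adjusted p = 5.37e-09). Slc20a2 (PiT2), which does the same transport, averaged 25.9 ± 1.62 CPM in YAP5SA and 27.8 ± 4.38 CPM in Ctrl (SD, n = 4 each) and was not called (log2 fold change -0.10 ± 0.11 SE). The 3 TEAD cores printed for Slc20a1 begin at positions -230, -198 and -96 from the start site.

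Slc39a8 (ZIP8), a plasma membrane and lysosomal carrier of zinc, manganese and iron, had the largest rise of the tested members. It had 453, 509, 424 and 502 CPM in YAP5SA libraries, against 6.09, 4.50, 3.25 and 6.14 CPM in Ctrl libraries. Within each group the libraries were alike, and between the groups the gap was far larger than this spread. Slc39a8 was 95.6-fold higher in YAP5SA (log2 fold change 6.58 ± 0.17 SE, edgeR adjusted p = 1.46e-12), and among genes called higher it ranked 63 by log2 fold change. The TEAD core printed for Slc39a8 begins at position -63 from the start site, and another RefSeq start site of the gene has an MTF1 core at position -19.

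Of 14 listed SLC39 carriers 11 were tested (72.7% called, beside 64.5% of all genes tested). Of these 5 were higher, Slc39a8 among them, 3 were lower and 3 were not called. Slc39a13 (ZIP13), which moves zinc out of Golgi vesicles and is needed in connective tissue, had 28.7, 31.6, 28.6 and 34.4 CPM in YAP5SA libraries, against 4.06, 3.44, 3.59 and 2.85 CPM in Ctrl libraries. All YAP5SA libraries were well above all Ctrl libraries, and the rise was 8.83-fold (log2 fold change 3.14 ± 0.13 SE, edgeR adjusted p = 1.29e-10). Slc39a4 (ZIP4), the carrier for dietary zinc in the intestine, had 114, 113, 106 and 105 CPM in YAP5SA libraries, against 86.3, 69.8, 74.3 and 77.5 CPM in Ctrl libraries. The groups did not overlap, though the change was small (log2 fold change 0.51 ± 0.08 SE, edgeR adjusted p = 6.11e-05). Slc39a14 (ZIP14), a relative of Slc39a8 that also carries iron and manganese, had 17.4, 16.8, 14.6 and 18.0 CPM in YAP5SA libraries, against 13.4, 8.94, 8.84 and 11.6 CPM in Ctrl libraries. It was higher in YAP5SA, with no overlap (log2 fold change 0.65 ± 0.15 SE, edgeR adjusted p = 0.00141), and Slc39a6 (ZIP6) was higher as well (log2 fold change 1.23 ± 0.12 SE).

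Lower in YAP5SA were Slc39a11, Slc39a9 and Slc39a1. Slc39a11 (ZIP11), a zinc carrier of Golgi and other inner membranes, had 56.9, 54.5, 61.1 and 67.8 CPM in YAP5SA libraries, against 203, 230.1, 228 and 218 CPM in Ctrl libraries. The groups were widely separated, and the fall was 3.66-fold (log2 fold change -1.87 ± 0.08 SE, edgeR adjusted p = 2.45e-10). Slc39a9 (ZIP9) of the Golgi had a log2 fold change of -0.999 ± 0.070 SE, and Slc39a1 (ZIP1), a zinc importer of most cells, one of -0.34 ± 0.07 SE. Slc39a3, Slc39a10 and Slc39a7 were not called, with log2 fold changes of -0.22, 0.16 and 0.20. Slc39a7 (ZIP7), which releases zinc from the endoplasmic reticulum, shares 80.7% of its exon bases with Gm20427 on the same strand, so its counts are uncertain.

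Of 10 SLC30 carriers, which export zinc, 6 were tested, with 1 higher, 1 lower and 4 not called (33.3% called, beside 64.5% of all genes tested), and neither called change exceeded 2-fold. Slc30a1 (ZnT1), the exporter of the plasma membrane, had 30.4, 34.7, 34.6 and 26.7 CPM in YAP5SA libraries, against 49.0, 46.6, 53.2 and 65.1 CPM in Ctrl libraries. The groups did not overlap (log2 fold change -0.76 ± 0.12 SE, edgeR adjusted p = 6.2e-05). Slc30a9, a zinc exporter of mitochondria, had 162, 165, 150.1 and 138 CPM in YAP5SA libraries, against 111, 111, 115 and 109 CPM in Ctrl libraries. It was higher in every YAP5SA library (log2 fold change 0.46 ± 0.07 SE, edgeR adjusted p = 7.9e-05). The exporters of the secretory pathway and vesicles, Slc30a4, Slc30a5, Slc30a6 and Slc30a7, had log2 fold changes of 0.00, 0.18, 0.18 and -0.01 with SEs of 0.07 to 0.11.

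The metallothioneins, which buffer cytosolic zinc, and their activator Mtf1 were lower or not called. Mt1 was lower, with overlapping groups (log2 fold change -1.52 ± 0.50 SE, edgeR adjusted p = 0.016). Its call was lost with DESeq2 (adjusted p = 0.0568) and without YAP5SA replicate 2, YAP5SA replicate 3 or Ctrl replicate 4 (adjusted p = 0.0533, 0.0528 and 0.0929), and without Ctrl replicate 4 the log2 fold change was -0.69. Mt2 was not called (log2 fold change -1.17, edgeR adjusted p = 0.12), with -0.11 without Ctrl replicate 4 and -2.18 without YAP5SA replicate 4, where it passed (adjusted p = 0.00459). It also passed with the replicate number as a block (log2 fold change -1.12, adjusted p = 7.93e-10), and Mt1 had -1.40 there (adjusted p = 4.99e-10); both genes were highest in replicate 4 of both groups. Mtf1 was lower (log2 fold change -0.54, edgeR adjusted p = 0.00383). Among the 14 tested SLC30 and SLC39 members with a promoter window, 7 had an MTF1 core, the same share as the 19 of all 38 tested members with a window.

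Iron, copper and magnesium carriers showed 3 rises, no falls and 4 members not called among the 7 tested of 8. Of the 7 tested 42.9% were called, beside 64.5% of all genes tested. Slc40a1 (ferroportin), the iron exporter of cells, had 25.4, 22.9, 19.7 and 24.8 CPM in YAP5SA libraries, against 12.8, 9.18, 10.2 and 16.1 CPM in Ctrl libraries. The rise was 1.93-fold without overlap (log2 fold change 0.95 ± 0.16 SE, edgeR adjusted p = 0.000131). Slc31a1 (CTR1), the copper importer, had 199, 190.2, 181 and 169 CPM in YAP5SA libraries, against 152, 149, 165 and 143 CPM in Ctrl libraries. The lowest YAP5SA library was only just above the highest Ctrl library (log2 fold change 0.28 ± 0.08 SE, edgeR adjusted p = 0.00518). Its relative Slc31a2, which acts on copper in endosomes and lysosomes, had a log2 fold change of 0.88 ± 0.11 SE. Slc11a2 (DMT1), the importer of ferrous iron, had 24.3, 19.1, 21.9 and 24.4 CPM in YAP5SA libraries, against 24.8, 21.0, 24.02 and 27.3 CPM in Ctrl libraries. These groups overlapped and Slc11a2 was not called (log2 fold change -0.11 ± 0.11 SE, edgeR adjusted p = 0.391). The magnesium carriers Slc41a1, Slc41a2 and Slc41a3 were not called, with log2 fold changes of 0.08, -0.62 and 0.59.

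Partners of these metals moved in both directions for iron and mostly down for copper. Over all genes tested 33.1% were higher and 31.3% lower. Of 11 tested iron genes 3 were higher, 4 lower and 4 not called. Trf (transferrin), the iron carrier of plasma, averaged 144 CPM in YAP5SA and 7.76 CPM in Ctrl (log2 fold change 4.21 ± 0.14 SE, edgeR adjusted p = 1.43e-11). Cybrd1, a reductase that prepares iron for Slc11a2, averaged 306 CPM in YAP5SA and 1949 CPM in Ctrl (log2 fold change -2.67 ± 0.21 SE, edgeR adjusted p = 8.26e-08), and the iron sensor Aco1 was lower as well (log2 fold change -1.07). Of 8 tested copper genes 6 were lower and 2 not called; the copper pumps Atp7b and Atp7a had log2 fold changes of -1.65 and -0.74, and Sod1, a copper enzyme, one of -0.38. Of 8 tested genes of magnesium and phosphate handling 6 were lower and 2 higher. Cnnm4, a magnesium carrier of the basolateral membrane, had a log2 fold change of -1.54 and Nipa2 one of -0.67, while Trpm7, with -0.29, lost its call with scaling by library size (log2 fold change -0.12, adjusted p = 0.199, the highest of all alternatives).

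**Figure D4:**
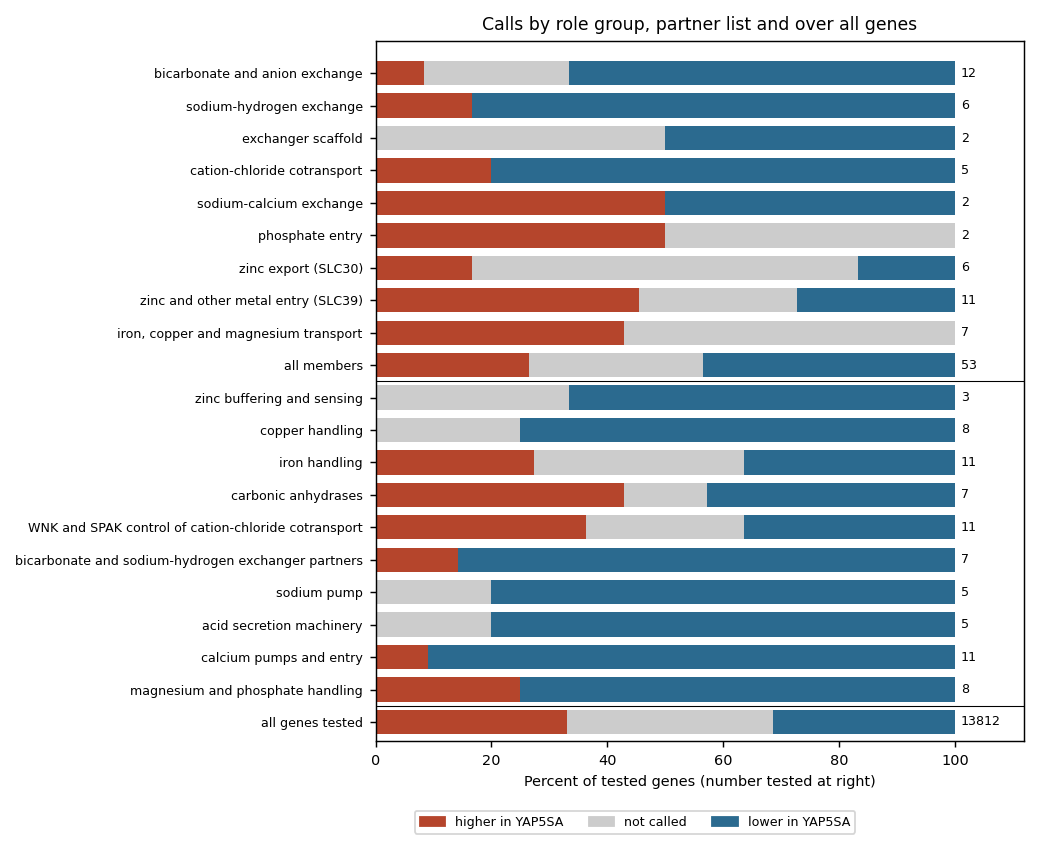
Percent of tested genes higher in YAP5SA, not called and lower in YAP5SA, for each role group of members, for the partner lists and for all genes tested, with the number tested at the right of each bar. No gene was left uncalled among sodium-hydrogen exchangers, cation-chloride cotransporters and sodium-calcium exchangers, while 64.5% of all genes tested were called. The same holds for the partner lists of exchanger partners, of calcium and of magnesium and phosphate. Iron, copper and magnesium carriers and phosphate carriers have none that was lower.

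Compared per kilobase of annotated exon, the order of the carriers differed between the groups. In YAP5SA, Slc39a8 came first with 61.6 ± 5.30 CPM per kilobase (SD, n = 4), followed by Slc39a1 with 57.2 ± 2.99, and the ranges of 1 SD overlap. In Ctrl, Slc9a4 came first with 168 ± 34.5 CPM per kilobase, followed by Slc26a2 with 145 ± 20.6, whose ranges of 1 SD also overlap (n = 4). Slc39a8 made up 11.4% of the CPM per kilobase of all carriers in YAP5SA and 0.0787% in Ctrl, where it ranked 41. Slc9a4 made up 4.10% in YAP5SA, at rank 8, and 20.3% in Ctrl. Slc26a2 made up 1.66% in YAP5SA, at rank 17, and 17.5% in Ctrl. Slc31a1, Slc20a1 and Slc12a2 followed in YAP5SA with 43.2 ± 3.00, 39.6 ± 9.76 and 35.3 ± 3.28 CPM per kilobase, and each of these 3 overlaps its neighbour within 1 SD. In Ctrl the next were Slc39a1, Slc39a11 and Slc12a2, with 72.3 ± 2.69, 65.4 ± 3.73 and 60.1 ± 3.07 CPM per kilobase, of which only Slc39a11 and Slc12a2 overlap within 1 SD. The lengths are those of the GENCODE M21 annotation of GRCm38, and the annotation used for the counts is not given in the sources used here.

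**Figure D5:**
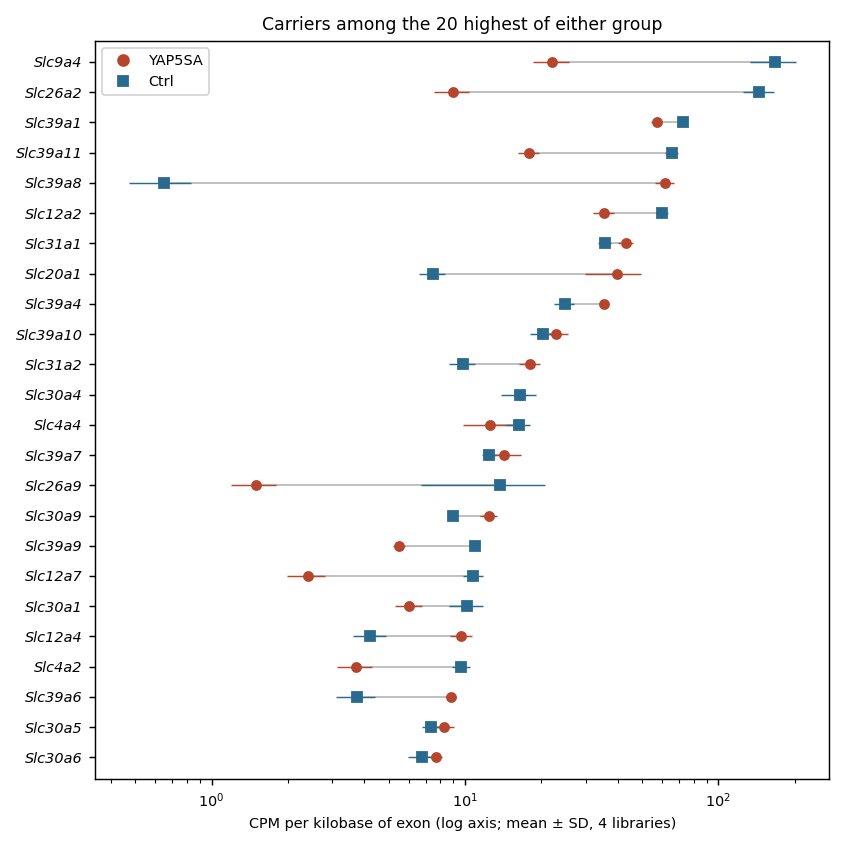
Mean CPM per kilobase of exon (log axis; bars are 1 SD, n = 4 each) of 24 carriers that rank among the 20 highest of either group, YAP5SA as circles and Ctrl as squares, in the order of the higher of both means. The pairs of Slc39a8, Slc26a2, Slc9a4, Slc26a9 and Slc20a1 lie farthest apart, and those of Slc30a4 coincide.

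Promoter windows with a TEAD core were found in 3 of 10 members called higher that have a window, Slc39a8, Slc20a1 and Slc12a4, and in 1 of 15 called lower, Slc39a11. Slc41a2 and Slc41a3, which were not called, had one too. The share was 6 of 38 tested members with a window, beside 16.58% of all genes with a window. An MTF1 core stood in 6 of the 10 called higher and 6 of the 15 called lower, beside 19 of the 38 tested members with a window. The share over all genes with a window, tested or not, was 28.23%. These numbers are small and no test was made on them.

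The 33 members that were not tested had few or no counts. Of these, 9 had 0 counts in all libraries: Slc4a1, Slc12a1, Slc24a2, Slc26a4, Slc26a5, Slc26a7, Slc30a8, Slc34a1 and Slc39a12. The other 24 had 1 to 65 counts over all libraries, with more counts in YAP5SA for 13 of them and in Ctrl for 10. Slc9a7, an exchanger of the trans-Golgi network that lies on the X chromosome, had 61 counts in YAP5SA and 4 in Ctrl. Without a filter on low counts it was called higher (log2 fold change 3.65, edgeR adjusted p = 1.54e-05). So was Slc24a4, a potassium-dependent sodium-calcium exchanger, with 12 counts in YAP5SA, 0 of them in replicate 4, and 0 in Ctrl (edgeR adjusted p = 0.0199). Against a floor of 3 counts over the Ctrl group its ratio was 4.22, which leaves out the counting error of the 12 counts. The fit without a filter gave all genes of a level the same spread, so these p-values do not use the spread of the gene itself. Slc9a9, an endosomal exchanger, had 17 counts in YAP5SA and 2 in Ctrl, a ratio of 8.97 with an exact 95% interval of 2.13 to 80.0. Such intervals cover counting error only, and a floor covers only that of the group with 0 counts.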

How the data were processed

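What the authors deposited are raw counts of reads, 1 whole number per gene and library, without normalization. The tools named in the submitters' processing notes are cutadapt, HISAT2 2.0.1 and HTSeq 0.6.1, and the build is mm9. No source used here gives the annotation or the strand setting, so genes with overlapping exons are uncertain.

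Groups and replicate numbers come from the sample titles. The counts went into edgeR 4.0.16 under R 4.3.3: filterByExpr (minimum count 10, minimum total 15) kept 13812 genes, TMM scaled the libraries, and the two-sided quasi-likelihood F test compared YAP5SA with Ctrl without covariates. Benjamini-Hochberg adjustment covered every gene tested, and the threshold was 0.05. SE is the absolute log2 fold change over the root of F. CPM values are TMM scaled. A floor of 3 counts was 0.116 to 0.173 CPM per library. The test was checked on simulated data in which few genes changed and all had the same spread beyond counting error, unlike these data. No pair of replicates agreed within sampling noise (chi-square per degree of freedom 5.01 to 39.1).

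Members and lists were chosen with earlier results of these data known. Members named in full were, per role group, the highest and lowest called with a mean of at least 1 CPM, the 5 largest changes, and a list of carriers known in gastric epithelium; from each partner list up to 3 called genes were named. Other members given with a value, and Cftr, Kcnq1, Atp4a, Ahcyl1, Oxsr1, the cell type markers and the overlapping genes, were chosen after their values were seen. Some members enter the counts but are not reported by name here. All 86 symbols matched GENCODE M21 (GRCm38), which gave the exon lengths. Alternatives were DESeq2 1.42.0, limma-voom (limma 3.58.1), RLE and library size scaling, no filter, a filter at 1 CPM in 4 libraries, a block for the replicate number, and leaving out each library.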

Additional observations from a re-analysis of the deposited data

Results flagged for a closer look

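In 8 groups of 4 libraries, over 50 members examined in both groups, 1 library lay far from the other 3 by Dixon's 95% criterion on the gap to the nearest library; chance gives about 1 in 20 such groups. YAP5SA replicate 4 was highest for Slc20a1, with 302.4 CPM against 186.9 to 201.4 CPM in the other YAP5SA libraries, and for Slc39a7, with 45.93 CPM against 32.79 to 34.6 CPM. YAP5SA replicate 1 was highest for the low-level carriers Slc4a8 (3.088 CPM, others 1.353 to 1.596) and Slc24a5 (1.499 CPM, others 0.8324 to 0.8666). YAP5SA replicate 2 was lowest for Slc9a8, with 12.17 CPM against 13.58 to 13.8 CPM. Ctrl replicate 1 was highest for Slc4a11 (21.49 CPM, others 10.54 to 11.72) and Slc4a5 (2.257 CPM, others 0.782 to 0.9591). Ctrl replicate 4 was highest for Slc31a2 (23.46 CPM, others 18.26 to 19.01). The called members among these kept their call and direction in every fit that left out 1 library.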

How the results depend on the processing

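Over all alternatives 13 to 20 members were higher and 21 to 24 lower. Library size scaling, which moved the median of all genes to 0.19 on the log2 scale, gave 20 higher and 21 lower, against 14 and 23, and a median over members of 0.0612; Slc12a9 lost its call there (log2 fold change -0.31, adjusted p = 0.0702), and Slc26a11, Slc4a3, Slc39a10, Slc39a7, Slc30a5 and Slc30a6 gained one as higher. Leaving out each library gave medians over members of -0.2042 (without Ctrl replicate 3) to -0.0726 (without Ctrl replicate 4). Members not called changed sign near 0: Slc4a7 (0.0295), Slc11a2 (0.0612), Slc20a2 (0.0686) and Slc30a7 (0.1678) with library size scaling, Slc30a7 also with the filter at 1 CPM (5e-04) and when leaving out single libraries (-0.0533 to 0.0124, above 0 without YAP5SA replicates 1 or 3), and Slc30a4 with DESeq2 (-0.0105), RLE (-0.0117), no filter (-0.0017) and when leaving out single libraries (-0.0867 to 0.0725). Correlations of same-numbered deviations were 0.099, 0.06, 0.114 and 0.365, all above 0 but not all over 0.1, so the numbers were not taken as pairs; libraries 1 and 4 correlated best with their own number and libraries 2 and 3 with each other's. With the number as a block 14 members were higher and 24 lower, Slc41a2 being added (-0.66, adjusted p = 0.032), 9174 genes were called against 8907, and Mt2 passed (-1.12, adjusted p = 7.93e-10). Mt2 also passed with no filter, where the fit did not use a gene's own spread. The cause of these changes was not tested. The 33 members not tested had at most 65 counts over all libraries, where low depth and absent expression cannot be told apart.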

Other observations

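Tested genes of acid secretion that work beside the carriers were lower or not called. Of 10 listed genes 5 had enough counts to be tested, and 4 of these were lower, beside 31.3% of all genes tested. Kcnj15, a potassium channel of parietal cells, averaged 11.96 CPM in YAP5SA and 189 CPM in Ctrl (log2 fold change -3.99 ± 0.20 SE, edgeR adjusted p = 7.98e-10). Clic6, a chloride channel protein of gastric cells, averaged 30.4 CPM in YAP5SA and 151 CPM in Ctrl (log2 fold change -2.31 ± 0.09 SE, edgeR adjusted p = 4.11e-11). Ezr, the ezrin that Slc9a3r1 binds, had a log2 fold change of -0.36 and is also counted among the exchanger partners. Kcnq1, another potassium channel, had a log2 fold change of -0.25 and was close to the threshold (edgeR adjusted p = 0.0446). Atp4a, the catalytic proton pump subunit, had 368 counts in YAP5SA and 233 in Ctrl and was not called (log2 fold change 0.55, edgeR adjusted p = 0.113). Cftr, a chloride and bicarbonate channel counted among the exchanger partners, had 54 counts in YAP5SA and 271 in Ctrl (log2 fold change -2.43 ± 0.37 SE, edgeR adjusted p = 5.83e-05).

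The summed level of metallothioneins and Mtf1 was highest in replicate 4 of both groups. It was 113, 137, 129.7 and 443 CPM in YAP5SA libraries 1 to 4, against 237, 302, 319 and 1239 CPM in Ctrl libraries 1 to 4. Slc30a1 was lowest in replicate 4 of YAP5SA (26.7 CPM) and highest in replicate 4 of Ctrl (65.1 CPM). Whether the replicate number marks a shared culture is not given by the labels.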
